A study of Homo sapiens with 4 samples.

Results

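The genes of cholesterol and fatty acid synthesis were examined as a set of 30 genes, taken by name from the 60606 genes of the count table. All 30 were in the table and all 30 passed the expression filter, out of 19349 genes tested. They comprised 7 genes of the mevalonate steps, 11 genes of the sterol steps, 5 genes for the SREBP factors, their regulators and a sterol carrier, and 7 genes of fatty acid synthesis. RNA was measured in LNCaP-DaroR cells, an LNCaP-derived human prostate cancer line made resistant to the antiandrogen darolutamide by long culture in the drug. The 2 siControl libraries came from cells transfected with control siRNA, and the 2 siLOC730101 libraries from cells transfected with a pool of siRNAs against the lncRNA LOC730101. All cells were grown in RPMI1640 with serum, and per the study's methods the resistant line was kept in darolutamide. All libraries came from 1 resistant line, and nothing in the labels says that the replicates were separate cultures, so that the p-values measure the spread between these libraries, which may be technical.

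Cells make cholesterol from acetyl-CoA through mevalonate, squalene and a series of sterols, and they make fatty acids from citrate-derived acetyl-CoA. Both pathways are switched on by SREBP transcription factors. When sterols are scarce in the endoplasmic reticulum, SCAP escorts the SREBP precursor to the Golgi, where it is cut and its active part goes to the nucleus. When sterols are plentiful, INSIG proteins hold the complex back. Androgen signaling is known to raise lipid synthesis in prostate cancer cells, and LNCaP cells are known for high levels of the fatty acid enzymes.

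LOC730101 was matched by position to ENSG00000216775 of the table, at chr6:52664366-52669155 on the plus strand of hg38, the build of all coordinates here. Its RNA was lower in both siLOC730101 libraries. Its normalized CPM, the count scaled to a common library size with TMM factors, was 47.4 and 50.6 in siControl and 15.4 and 17.9 in siLOC730101 (log2 fold change -1.56 ± 0.12 SE, edgeR adjusted p = 4.34e-06). The libraries held 39213498 to 53368158 counts. All 8 luminal prostate markers were detected, and they took 0.554% to 0.625% of the counts of a library. Of 8 markers of basal, neuroendocrine, leukocyte, endothelial and stromal cells, 4 were at 0 in all libraries, KRT5, TP63, CHGA and PTPRC. The stromal marker COL1A1 had 451 to 797 counts in a library, and KRT14, ACTA2 and PECAM1 had 0 to 32. The list took 0.00116% to 0.00155% of the counts. The median log2 fold change over all genes tested was -0.0021. In bulk RNA, fewer cells that express a gene and less RNA per cell cannot be told apart.

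None of the 30 genes passed an adjusted p of 0.05 in edgeR's quasi-likelihood test in either direction. At this threshold 41 of all genes tested were higher (0.212%) and 14 were lower (0.0724%). At an unadjusted p under 0.05, 4 of the 30 genes were higher and 0 were lower, where the shares over all genes tested were 6.43% and 4.39%. With DESeq2, 2 genes passed the adjusted threshold, PMVK (log2 fold change 0.49, adjusted p = 0.0139, DESeq2) and HMGCS1 (0.27, adjusted p = 0.0453, DESeq2). Both were higher after siLOC730101. DESeq2 gave no adjusted p for FDFT1. It called 1.26% of the 19349 genes higher and 0.398% lower, with genes lacking an adjusted p kept in the total. The lowest adjusted p of the set in edgeR was 0.0974, for PMVK. The log2 fold changes ran from -0.51 for FDFT1 to 0.50 for PMVK. The 95% interval of the fold change lay within 1.5-fold in both directions for 27 of the 30 genes. The other 3 were PMVK and STARD4, whose intervals reached higher, and FDFT1, whose interval reached lower.

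**Figure D1:**
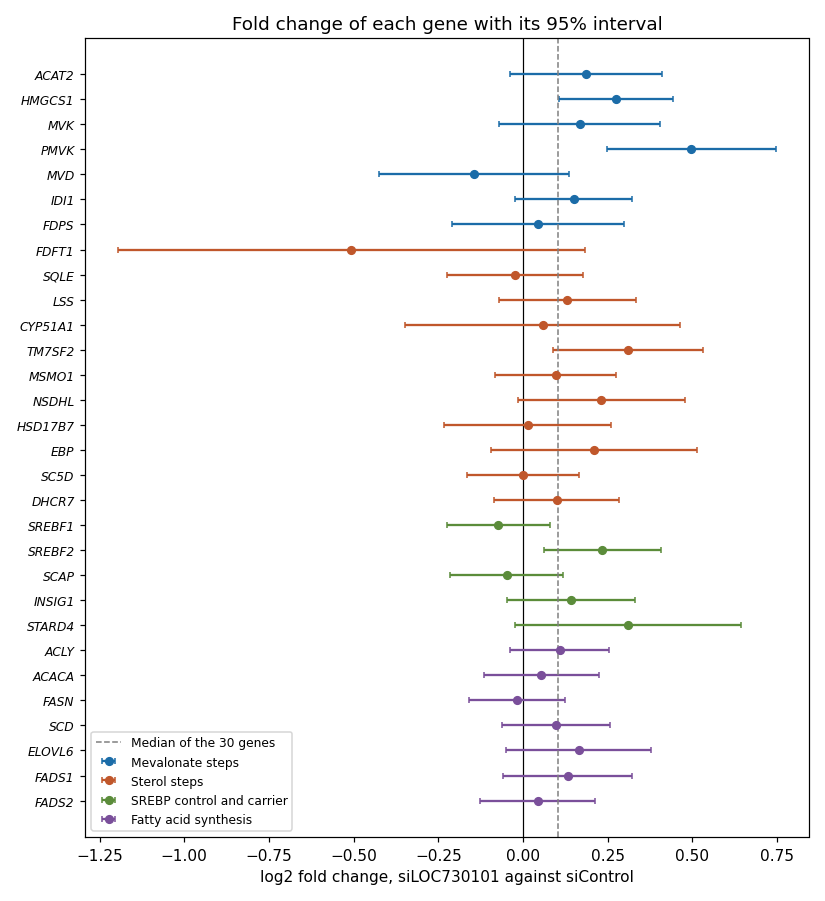
Log2 fold change of each of the 30 genes (x axis, siLOC730101 against siControl) with its 95% interval from edgeR, coloured by role, with the median of the set as a dashed line. Of the 30 points 23 lie to the right of 0, the interval of FDFT1 is the widest, and the intervals of HMGCS1, PMVK, TM7SF2 and SREBF2 do not reach 0.

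The set lay to the higher side by small amounts. The log2 fold change was above 0 for 23 of the 30 genes, against 49.6% of all genes tested, and its median was 0.10. By role the median was 0.17 for the mevalonate steps, 0.096 for the sterol steps, 0.14 for the control genes and 0.097 for fatty acid synthesis. The summed normalized CPM of the 7 mevalonate genes was 342.8 and 350.6 in siControl and 391.5 and 407.4 in siLOC730101, so that the groups did not overlap. In the other roles the groups overlapped. The sums were 719.4 and 677.4 against 712.9 and 794.4 for the sterol steps and 981.3 and 893.6 against 944 and 978.7 for the control genes. For fatty acid synthesis they were 4093 and 3785 against 4126 and 3935. For all 30 genes the sums were 6137 and 5707 against 6175 and 6116, and the groups overlapped. The 8 luminal prostate markers lay to the same side, with 6 above 0 and a median log2 fold change of 0.11, and their summed normalized CPM was 6166 and 5475 in siControl and 6021 and 6421 in siLOC730101, with overlapping groups. Of these markers 0 passed an adjusted p of 0.05 in edgeR, and at an unadjusted p under 0.05 2 were higher and 1 was lower. Their part in the values of the set was not tested. Both siLOC730101 libraries lay above both siControl libraries for 16 of the 30 genes, where 21.3% of all genes tested did. They lay below for 2 genes, SREBF1 and FDFT1, where 20.5% of all genes did. In the other 12 genes the groups overlapped.

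Differences between replicates of 1 group were of a similar size. Replicate 2 was lower than replicate 1 for 23 of the 30 genes in siControl, with a median log2 ratio of -0.086. In siLOC730101 replicate 2 was higher for 19 of the 30, with a median log2 ratio of 0.062. Over all genes tested these medians were -2.09e-05 and 0.011. Most of the genes thus lay on the same side between libraries of the same treatment as well. With 1 library left out at a time, the median log2 fold change of the set was lowest, 0.075, without siControl replicate 2, and highest, 0.15, without siControl replicate 1.

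**Figure D2:**
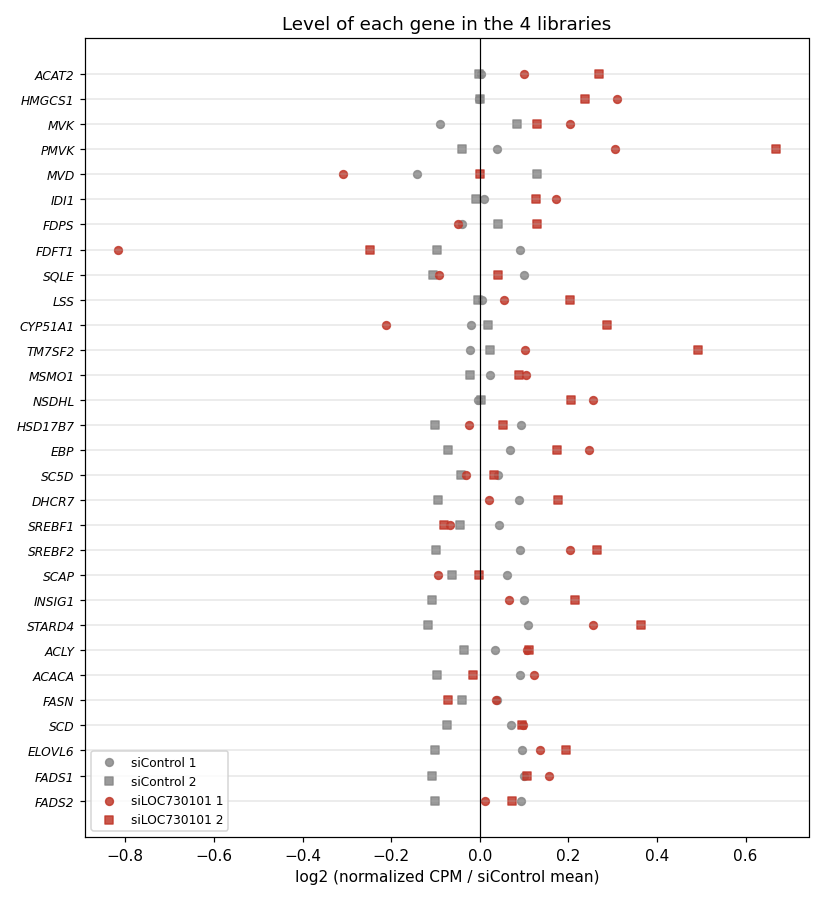
Normalized CPM of each gene in each library as the log2 ratio to the siControl mean (x axis), with siControl in grey, siLOC730101 in red, circles for replicate 1 and squares for replicate 2. Red symbols lie to the right of both grey symbols for 16 genes, the 2 red symbols of PMVK, TM7SF2, CYP51A1 and FDFT1 lie far apart, and the grey squares lie to the left of the grey circles for 23 genes.

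Promoter sequences are shown for the 4 genes with an unadjusted p under 0.05 in edgeR and for NSDHL, which did not meet that rule. NSDHL is shown as an example with many CCAAT matches, and the window of MVK, not shown, also held several. They are RefSeq windows on GRCh38.p14, from 250 bases before to 50 bases after a transcription start, and 26 of the 30 genes had a window. For a gene with several windows, the window with the most matches to the motifs searched below is shown. The window of SREBF2 is chr22:41832855-41833154 on the plus strand. The window of HMGCS1 shown is chr5:43313363-43313662 on the minus strand. Another HMGCS1 window, chr5:43313132-43313431, held no CCAAT match on either strand. The window of TM7SF2 is chr11:65111622-65111921 on the plus strand. The window of PMVK is chr1:154936670-154936969 on the minus strand. The window of NSDHL is chrX:152830813-152831112 on the plus strand. Capitals mark matches to TCACNCCAC, a form of the sterol regulatory element that SREBP binds, and to CCAAT or its reverse complement ATTGG, the element of NF-Y, a factor that works beside SREBP at many of these promoters.
SREBF2: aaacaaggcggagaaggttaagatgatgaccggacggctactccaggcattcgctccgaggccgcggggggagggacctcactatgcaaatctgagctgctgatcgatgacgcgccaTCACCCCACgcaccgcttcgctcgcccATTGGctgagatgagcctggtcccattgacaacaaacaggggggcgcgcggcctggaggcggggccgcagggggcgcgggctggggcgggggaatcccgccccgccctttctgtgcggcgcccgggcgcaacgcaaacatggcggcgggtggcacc
HMGCS1: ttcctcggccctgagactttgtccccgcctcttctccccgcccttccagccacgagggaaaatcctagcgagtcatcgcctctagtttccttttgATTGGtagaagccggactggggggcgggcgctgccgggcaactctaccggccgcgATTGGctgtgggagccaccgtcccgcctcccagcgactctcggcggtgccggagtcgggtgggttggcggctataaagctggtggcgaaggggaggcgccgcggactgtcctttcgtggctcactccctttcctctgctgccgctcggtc
TM7SF2: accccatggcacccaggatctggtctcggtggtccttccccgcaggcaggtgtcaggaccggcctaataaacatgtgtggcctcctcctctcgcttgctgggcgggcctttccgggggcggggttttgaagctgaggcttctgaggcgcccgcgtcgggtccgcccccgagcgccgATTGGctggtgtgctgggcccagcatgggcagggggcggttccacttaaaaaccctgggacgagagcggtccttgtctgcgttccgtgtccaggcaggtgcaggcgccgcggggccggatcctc
PMVK: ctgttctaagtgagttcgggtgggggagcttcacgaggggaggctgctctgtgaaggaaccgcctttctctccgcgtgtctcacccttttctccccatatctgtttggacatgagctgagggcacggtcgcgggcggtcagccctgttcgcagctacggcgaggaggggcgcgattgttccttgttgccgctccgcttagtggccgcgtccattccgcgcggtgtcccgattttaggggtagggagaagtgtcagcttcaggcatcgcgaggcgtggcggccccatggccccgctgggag
NSDHL: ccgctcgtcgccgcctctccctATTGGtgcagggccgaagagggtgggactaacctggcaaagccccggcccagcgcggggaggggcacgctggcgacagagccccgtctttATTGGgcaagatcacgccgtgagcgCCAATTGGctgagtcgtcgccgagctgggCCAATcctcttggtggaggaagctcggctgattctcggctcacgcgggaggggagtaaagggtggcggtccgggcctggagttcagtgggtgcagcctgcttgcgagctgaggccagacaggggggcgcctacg

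TCACNCCAC was searched on both strands and was found in 1 of the 26 genes, SREBF2, with its first base at -133 from the start site, where 1.39% of all 27305 genes with a window held it. In SREBF2 a CCAAT element on the opposite strand begins at -106. CCAAT was found on either strand in 20 of the 26 genes (76.9%), and of all the genes with a window 39.7% held it. NSDHL held 5 matches, of which a CCAAT and an ATTGG overlap. HMGCS1 held 2 in the window shown and TM7SF2 held 1. PMVK held neither motif in its window. GGGCGG, the GC box of Sp1 family factors, was found on either strand in 25 of the 26 genes, against 48.3% of all genes, and NSDHL was the gene without it. The median log2 fold change was 0.12 for the 20 genes with CCAAT and 0.095 for the 6 without it. These matches describe the letters of the windows only. The genes with a window were not matched to the set by expression or gene type.

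The mevalonate steps run from acetoacetyl-CoA to farnesyl diphosphate. HMGCS1, at chr5:43287470-43313512, makes HMG-CoA. Its normalized CPM was 105.2 and 105.4 in siControl and 130.6 and 124.1 in siLOC730101. The siControl libraries were nearly equal, and both siLOC730101 libraries lay above them. The log2 fold change was 0.27 ± 0.079 (SE, edgeR adjusted p = 0.169), a fold of 1.21 with a 95% interval from 1.08 to 1.36. It lay between 0.25 and 0.31 with any 1 library left out. An antisense-strand gene of the table, ENSG00000261604, overlaps 37.7% of the HMGCS1 exon sequence, and all of its own exon sequence lies within HMGCS1 exons. Reads there are not counted for either gene by the default of featureCounts. The 0 counts of ENSG00000261604 in all libraries thus do not show that it is silent. The HMGCS1 counts stand for part of the HMGCS1 transcript.

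PMVK, at chr1:154924740-154936719, phosphorylates phosphomevalonate and had the highest log2 fold change of the 30 genes. The normalized CPM was 38.3 and 36.3 in siControl and 46.1 and 59.2 in siLOC730101. Both siLOC730101 libraries were higher than both siControl libraries, and they differed more from each other than the siControl libraries did. The log2 fold change was 0.50 ± 0.12 (SE, edgeR adjusted p = 0.0974), a fold of 1.41 with a 95% interval from 1.19 to 1.68. It was 0.30 (adjusted p = 0.439, edgeR) without siLOC730101 replicate 2 and 0.68 (adjusted p = 7.02e-07, edgeR) without siLOC730101 replicate 1, so that its size rested on siLOC730101 replicate 2. Without siControl replicate 1 its adjusted p was 0.0388 in edgeR.

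The enzymes before and after these steps had smaller values. ACAT2, the thiolase that forms acetoacetyl-CoA, had a normalized CPM of 34.8 and 34.7 in siControl and 37.2 and 41.9 in siLOC730101, and IDI1, the isomerase of isopentenyl diphosphate, had 84.3 and 83.2 against 94.4 and 91.4. MVK, mevalonate kinase, had 27.6 and 31.2 against 33.8 and 32.2. In these 3 genes the groups did not overlap, and their log2 fold changes were 0.19, 0.15 and 0.17, with adjusted p-values of 0.561, 0.545 and 0.640 in edgeR. Exons of TCP1 and SOD2 on the opposite strand cover parts of ACAT2, 22.2% of its exon sequence in all with SOD2-OT1, and reads there could not be assigned by strand. MVD, which decarboxylates mevalonate diphosphate, was the one mevalonate gene with a value below 0, at -0.15 ± 0.13 (SE), with overlapping groups. Its log2 fold change turned to 0.011 without siLOC730101 replicate 1. FDPS, which makes farnesyl diphosphate, had a log2 fold change of 0.044 ± 0.12 (SE). The table lists 8 pseudogene copies of FDPS with 5 to 22 counts in all per library, so reads that match several copies may be missing from its 1010 to 1335 counts.

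The sterol steps lead from farnesyl diphosphate to cholesterol. TM7SF2, a sterol reductase at chr11:65111845-65116384, had the highest log2 fold change among them. The normalized CPM was 122.9 and 126.8 in siControl and 134.0 and 175.6 in siLOC730101, so that siLOC730101 replicate 2 stood well above the other libraries. The log2 fold change was 0.31 ± 0.10 (SE, edgeR adjusted p = 0.250). It was 0.099 (adjusted p = 0.887, edgeR) without siLOC730101 replicate 2 and 0.50 (adjusted p = 1.58e-07, edgeR) without siLOC730101 replicate 1. The value thus came mostly from 1 library.

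NSDHL, which removes methyl groups from sterol intermediates, had a normalized CPM of 22.6 and 22.8 in siControl and 27.1 and 26.2 in siLOC730101. The replicates were close in both groups, and the log2 fold change was 0.23 ± 0.12 (SE, edgeR adjusted p = 0.500). EBP, the sterol isomerase, had a log2 fold change of 0.21 ± 0.14 (SE), LSS, which closes the sterol rings, of 0.13 ± 0.094 (SE), and MSMO1, a methyl sterol oxidase, of 0.096 ± 0.084 (SE). For all 4, NSDHL included, the siLOC730101 libraries were the higher pair. An unnamed gene, ENSG00000286268, shares 36.4% of the EBP exon sequence on the same strand and had 1 to 20 counts in a library.

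The remaining sterol genes showed no separation by group, apart from FDFT1. SQLE, squalene epoxidase and a rate-limiting enzyme of the sterol branch, had a normalized CPM of 83.0 and 72.0 in siControl and 72.7 and 79.7 in siLOC730101. Its log2 fold change was -0.025 with a 95% interval of the fold from 0.855 to 1.13. SC5D, a sterol desaturase, had 149.0 and 140.6 against 141.6 and 148.1, with the same mean of 144.8 in both groups. DHCR7, which catalyses the last step to cholesterol, had 158.3 and 139.6 against 151.0 and 168.3 (log2 fold change 0.10 ± 0.086 SE). HSD17B7, a sterol ketoreductase, had a log2 fold change of 0.013 ± 0.12 (SE), and its direction turned in 4 of the 11 alternative settings. CYP51A1, the lanosterol demethylase, had 9.51 and 9.76 against 8.32 and 11.8. Other genes of the table cover 74.1% of the CYP51A1 exon sequence, most of it ENSG00000285772 and ENSG00000289027 on the same strand with 0 to 8 counts each. Reads in shared exons are not counted for any gene by the default of featureCounts, so its 342 to 514 counts stand for part of its transcript.

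FDFT1, squalene synthase, which commits farnesyl diphosphate to sterols, had the lowest level and the lowest log2 fold change of the 30 genes. Its counts were 180 and 137 in the control libraries and 73 and 100 after siLOC730101, a normalized CPM of 3.33 and 2.93 against 1.78 and 2.63. Both siLOC730101 libraries were below both siControl libraries. The log2 fold change was -0.51 ± 0.32 (SE, edgeR adjusted p = 0.620), with a 95% interval of the fold from 0.437 to 1.13, which includes 1. Leaving out siLOC730101 replicate 1 gave -0.24, and leaving out replicate 2 gave -0.82. Exons of another gene cover 4.18% of the FDFT1 exon sequence.

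Among the control genes, the 2 SREBP genes lay on opposite sides of 0. SREBF2, at chr22:41833079-41907307, encodes the factor known mainly for the cholesterol genes. Its normalized CPM was 203.2 and 178.2 in siControl and 219.7 and 229.1 in siLOC730101. The groups did not overlap, and the log2 fold change was 0.23 ± 0.081 (SE, edgeR adjusted p = 0.268), a fold of 1.18 with a 95% interval from 1.04 to 1.33. It was 0.15 without siControl replicate 2 and 0.27 without siLOC730101 replicate 1. SREBF1, at chr17:17810399-17837002, encodes the factor known mainly for the fatty acid genes. The normalized CPM was 409.2 and 385.0 in siControl and 379.2 and 375.4 in siLOC730101, with a log2 fold change of -0.074 ± 0.071 (SE, edgeR adjusted p = 0.785). The difference between the 2 genes was not tested.

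Both SREBP genes carry a microRNA of the miR-33 family in an intron, a family known to repress genes of sterol export. The mature sequences from RefSeq (GRCh38.p14) are shown because the hosts are the central regulators of the set, with the seed, bases 2 to 8, in capitals. MIR33A lies within SREBF2 at chr22:41900944-41901012 and MIR33B within SREBF1 at chr17:17813836-17813931, each on the strand of its host.
hsa-miR-33a-5p: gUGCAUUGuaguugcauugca
hsa-miR-33b-5p: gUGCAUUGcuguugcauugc

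The seeds of both are the same. Both hairpins had 0 counts in all 4 libraries, which were made from polyA RNA and do not measure mature microRNAs.

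SCAP, the escort of the SREBP precursor, had a normalized CPM of 212.4 and 195.0 in siControl and 190.7 and 203.5 in siLOC730101, with overlapping groups. INSIG1, which retains SCAP and is itself a sensitive SREBP target, had 143.9 and 124.6 against 140.5 and 155.7, with a log2 fold change of 0.14 ± 0.089 (SE, edgeR adjusted p = 0.614). STARD4, a sterol carrier, had 12.6 and 10.8 against 14.0 and 15.1, with a log2 fold change of 0.31 ± 0.16 (SE, edgeR adjusted p = 0.509). The groups overlapped for INSIG1 and not for STARD4, which had 505 to 683 counts and one of the widest intervals of the set.

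The genes of fatty acid synthesis included the most abundant of the set and had a median standard error of 0.079 on the log2 scale. Per kilobase of exon, FASN, the fatty acid synthase, had a mean normalized CPM of 211.1 in siControl, rank 98 of the 19349 genes tested. ACLY, which makes cytosolic acetyl-CoA from citrate, had 112.8 per kilobase. SCD, the stearoyl-CoA desaturase, had 58.3 per kilobase and ACACA, acetyl-CoA carboxylase, had 46.8. SREBF1, at 48.2 per kilobase, lay between SCD and ACACA. Over the full exon length, the lowest 4 genes per kilobase were MVK at 3.26, CYP51A1 at 2.31, STARD4 at 2.06 and FDFT1 at 0.602. Over the exon sequence that no other gene shares, CYP51A1 had 8.91 per kilobase and ranked 21 of the 30 genes, while MVK, STARD4 and FDFT1 were the lowest 3. FDFT1 was at percentile 27.7 of all genes tested by full exon length, while the other 29 genes lay at percentile 46.5 or above.

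**Figure D3:**
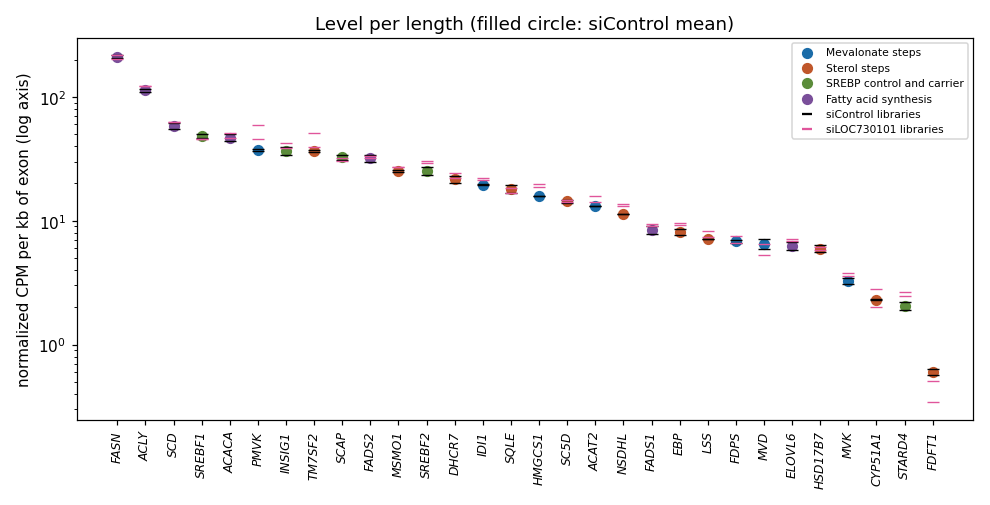
Normalized CPM per kilobase of exon (y axis, log scale) for the 30 genes in order of their siControl mean (filled circles, coloured by role), with 1 dash per library. FASN, ACLY and SCD lead the order with FASN at 211.1, FDFT1 stands lowest at 0.602, and in most genes the dashes of the 2 groups lie close together.

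FASN had a normalized CPM of 2021 and 1914 in siControl and 2017 and 1872 in siLOC730101. The 2 groups overlapped, and the fold was 0.988 with a 95% interval from 0.896 to 1.09. ACLY had 601.6 and 573.4 against 632.6 and 634.5, so that both siLOC730101 libraries were slightly higher (log2 fold change 0.11 ± 0.069 SE, edgeR adjusted p = 0.615). ACACA had 648.8 and 570.5 against 663.2 and 602.9, with replicate 1 above replicate 2 in both groups. SCD had 321.3 and 290.8 against 327.5 and 327.0 (log2 fold change 0.097 ± 0.075 SE).

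ELOVL6, which elongates saturated and monounsaturated fatty acids, had the highest log2 fold change of the 7 fatty acid genes, 0.16 ± 0.10 (SE, edgeR adjusted p = 0.600). Its normalized CPM was 48.7 and 42.5 in siControl and 50.1 and 52.2 in siLOC730101. FADS1 and FADS2, desaturases of polyunsaturated fatty acids on chromosome 11, had log2 fold changes of 0.13 and 0.043 (standard errors 0.090 and 0.079). In the annotation used, the span of FADS1 lies within that of FADS2. The groups did not overlap for FADS1 and overlapped for FADS2. Their exons share 490 nucleotides on opposite strands. For all 7 fatty acid genes the 95% interval of the fold lay within 1.5-fold.

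Exons were shared with other genes for 17 of the 30 genes (56.7%), against 48.6% of all genes tested. The overlapping genes TCP1, MMAB and RAI1 had log2 fold changes of -0.023, 0.20 and 0.0085, and none passed the test.

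Genes around the set were taken from 6 lists of 71 genes, of which 70 were tested, and 0 passed an adjusted p of 0.05 in edgeR or in DESeq2. At an unadjusted p under 0.05 in edgeR, 6 of the 70 were higher and 2 were lower, where 6.43% and 4.39% of all genes tested were. The 12 genes of SREBP processing and degradation had a median log2 fold change of -0.026, with INSIG2 at -0.17. The 11 genes of isoprenoid branches outside sterols had a median of -0.028, with PDSS1 at -0.16 and GGPS1 at -0.11. Among 10 genes of sterol handling, the median was -0.015, with FAXDC2 at -0.40 ± 0.27 (SE) and LBR, a sterol reductase with the activity of TM7SF2 that is also a lamin receptor, at -0.19 ± 0.084 (SE, edgeR adjusted p = 0.424).

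Of 5 genes for LXR receptors and sterol efflux, the transporter ABCG1 had a normalized CPM of 26.8 and 27.2 in siControl and 20.8 and 23.4 in siLOC730101 (log2 fold change -0.29, adjusted p = 0.373, edgeR). NR1H2, which encodes LXR beta, had 102.5 and 88.5 against 104.3 and 121.8 (log2 fold change 0.24, adjusted p = 0.349, edgeR). The 22 tested genes of fatty acid supply, elongation and esterification had a median log2 fold change of 0.073, led by MCAT at 0.28, of mitochondrial fatty acid synthesis, and FADS3 at 0.25. The 10 genes of fatty acid oxidation had a median of 0.083, with the carnitine carrier SLC25A20 at 0.27 and ACAA2 at -0.14. Genes of fatty acid breakdown thus had a median close to that of fatty acid synthesis, 0.097, and neither group held a gene that passed the test.

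**Figure D4:**
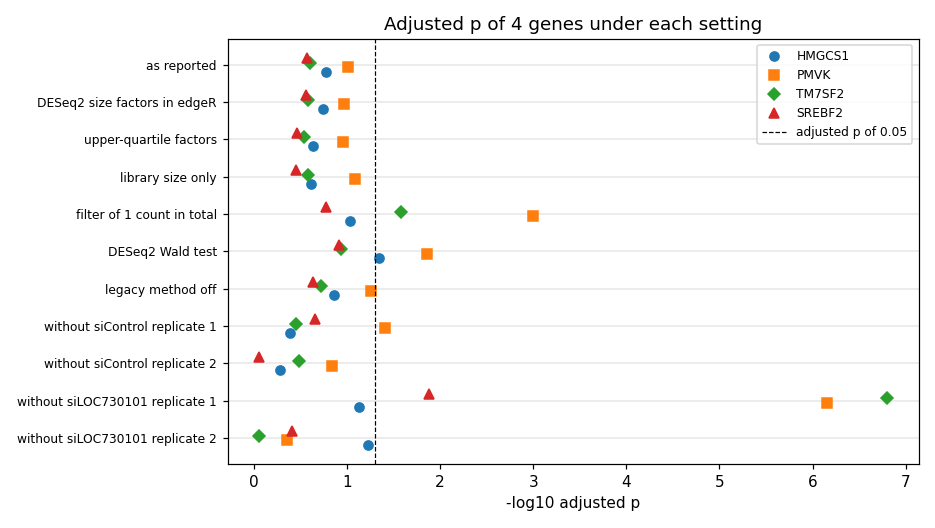
Adjusted p on a -log10 scale (x axis) of HMGCS1, PMVK, TM7SF2 and SREBF2 under the fit as reported and 10 of the 11 alternative settings (y axis, the setting with a term for the replicate number is not drawn), with the threshold of 0.05 as a dashed line. No gene passes in the fit as reported, and PMVK passes in 4 of the 10 alternatives drawn. In the settings with 1 library left out, the lone library is assumed to vary like the other group.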

How the data were processed

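RNA sequencing counts of 4 libraries were used, 2 siControl and 2 siLOC730101, grouped by their sample titles. The authors deposited unnormalized counts: reads were trimmed with Trim Galore, aligned (the methods name STAR, the submitters' processing notes BWA) and counted on exons per gene name with featureCounts 2.0.1. The file header names gencode 41 on hg38, and the methods an older build and release. No paired-end or strand option was set, and a read over exons of genes on both strands could not be given to either by strand. Of genes with 1 to 20 counts, 66.0% to 70.1% of a library had even values, and whether mates were counted apart was not tested. All sample columns were used.

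Genes were filtered with filterByExpr, scaled with TMM and tested across all genes with edgeR 4.0.16 (estimateDisp, glmQLFit with the legacy method, glmQLFTest) in R 4.3.3, and p-values were adjusted by Benjamini-Hochberg over 19349 genes. Intervals are 95% intervals from the moderated degrees of freedom. DESeq2 1.42.0, other scalings, a weaker filter, a replicate term and leaving out each library were alternatives. Exon overlap was computed from the exon coordinates of the table. Values are mean or single-library normalized CPM. The chi-square per degree of freedom between replicates was 10.6 in siControl and 13.0 in siLOC730101, above sampling noise, so the replicates were different libraries. An exact permutation test of 2 against 2 libraries cannot give a two-sided p below 0.333.

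The members and the gene lists were chosen with earlier results of these data known. Named were all members, LOC730101, genes whose exons overlap a member, and from each further list the genes past the threshold or else the 2 with the largest change, of which 1 gene is not reported here.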

Additional observations from a re-analysis of the deposited data

How the results depend on the processing

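The count of genes of the set passing an adjusted p of 0.05 depended on the setting. It was 2 higher genes with a filter of 1 count in total (PMVK and TM7SF2) and 2 with DESeq2, and 0 with the other scalings and with the legacy method off. The count of lower genes was 0 in all settings. With a term for the replicate number (replicate block) it was 4 higher genes, HMGCS1, PMVK, TM7SF2 and SREBF2, with 485 genes higher and 167 lower over all genes. Same-numbered libraries did not deviate together over genes as a whole (correlation -0.00090). With 2 libraries per group this value cannot exclude that the samples were paired, and the labels state no pairing. With 1 library left out, 0 to 3 genes of the set and 0 to 3 of the surrounding genes passed, the latter being ACAT1, NR1H2 and ACADVL without siLOC730101 replicate 1, and 77 to 923 of all genes were higher and 26 to 272 lower, where the lone library is assumed to vary like the other group. Over all genes the counts were 324 higher and 113 lower with a filter of 1 count, 244 and 77 with DESeq2 and 87 and 24 with the legacy method off, and 35 were lower with library size only. The cause was not tested. The direction of HSD17B7 turned to -0.018 with upper-quartile factors and -0.025 with library size only, and that of SC5D to 7.93e-05 with the replicate term. With libraries left out, the log2 fold change turned in 10 genes, with ranges of -0.31 to 0.011 for MVD, -0.050 to 0.14 for FDPS, -0.12 to 0.084 for SQLE, -0.21 to 0.30 for CYP51A1, -0.077 to 0.12 for HSD17B7, -0.038 to 0.044 for SC5D, -0.11 to 0.017 for SCAP, -0.033 to 0.15 for ACACA, -0.063 to 0.033 for FASN and -0.048 to 0.15 for FADS2. The other 20 genes kept their direction in all 11 alternatives, and the median of the set lay between 0.066 and 0.15.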

Other observations

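The genes on either side of FDFT1 on chromosome 8 were looked at after its low level was seen. CTSB, which encodes the protease cathepsin B, lies 3219 nucleotides beyond FDFT1 on the opposite strand. Its normalized CPM was 8.10 and 11.0 in siControl and 42.2 and 36.0 in siLOC730101, a log2 fold change of 2.04 ± 0.15 (SE, edgeR adjusted p = 4.34e-06). NEIL2, a DNA glycosylase gene that ends 8227 nucleotides before FDFT1, had 22.0 and 9.17 in siControl and 28.2 and 24.6 in siLOC730101 (log2 fold change 0.76 ± 0.26 SE, edgeR adjusted p = 0.255). Both siLOC730101 libraries were above both siControl libraries for CTSB and NEIL2, while they were below for FDFT1, which lies between them. The 2 siControl libraries differed more in NEIL2 than in any gene of the set. Exons of CTSB and NEIL2 overlap no exon of another gene in the table.

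HSD17B7P2, a pseudogene of HSD17B7, had 65 to 101 counts per library, with HSD17B7P1 at 0, and the copies together held at most 7.86% as many counts as HSD17B7. Its log2 fold change was 0.33 ± 0.38 (SE), with overlapping groups.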
